A study of Homo sapiens with 12 samples.

Results

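The tubulin genes described here are 10 genes for the building blocks of microtubules, namely 3 alpha tubulins (TUBA1A, TUBA1B and TUBA1C), 6 beta tubulins (TUBB, TUBB2A, TUBB2B, TUBB3, TUBB4B and TUBB6) and 1 gamma tubulin (TUBG1). They were found by symbol in the table of estimated counts, where they hold 17 of 23500 entries, and all 17 entries were among the 17162 that passed the filter on low counts. The members were listed with the response of HEK293T cells to the medium in view, so they were selected on that comparison, and their values in it are given as a description. RNA from whole cultures was sequenced in 4 groups of 3 libraries. HEK293T cells are a human embryonic kidney line that carries the SV40 large T antigen and does not proliferate when methionine is replaced by homocysteine, and R1 is a clone derived from them that does. R1 is a single clone, so what belongs to the clone and what belongs to growth without methionine cannot be told apart. Cells of each line were kept for 12 h in complete medium (+Met) or in medium without methionine that holds homocysteine (−Met+Hcy), and no other agent is named in the labels. The sample titles name R1, while the cell line field of the same samples reads HEK293T, and the titles were followed.

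Alpha and beta tubulin form the heterodimer that polymerises into microtubules, and gamma tubulin sits in the ring complex that starts new microtubules at centrosomes and spindles. The isotypes of alpha and of beta tubulin are encoded by separate genes whose proteins differ mainly in their tails. Cells hold the amount of free tubulin within limits by a feedback on the messages, called autoregulation: when free dimers are abundant, TTC5 recognises the first amino acids of a nascent alpha or beta tubulin at the ribosome and, with SCAPER and the CCR4-NOT deadenylase, the message is degraded. Newly made tubulin needs prefoldin, the ring-shaped CCT chaperonin and the cofactors TBCA to TBCE to reach its folded state.

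The starts of the reading frames are shown because they encode the residues read in autoregulation and because they show how alike the members are. Each line gives the first 30 coding bases of the canonical transcript (GENCODE, GRCh38), with the first 12 bases in capitals. The 3 alpha genes share all 30 bases, and the capitals spell methionine, arginine, glutamate and cysteine. In the 6 beta genes they spell methionine, arginine, glutamate and isoleucine, with the same capitals in TUBB and TUBB4B and in TUBB3 and TUBB6. TUBG1, whose product is not part of the dimer, starts differently.
TUBA1A: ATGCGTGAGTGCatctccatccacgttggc
TUBA1B: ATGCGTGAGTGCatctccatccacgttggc
TUBA1C: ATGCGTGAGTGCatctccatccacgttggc
TUBB: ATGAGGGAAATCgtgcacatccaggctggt
TUBB4B: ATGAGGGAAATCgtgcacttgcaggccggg
TUBB2A: ATGCGCGAGATCgtgcacatccaggcgggc
TUBB2B: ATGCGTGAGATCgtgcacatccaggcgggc
TUBB3: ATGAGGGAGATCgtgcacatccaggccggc
TUBB6: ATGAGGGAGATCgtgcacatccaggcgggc
TUBG1: ATGCCGAGGGAAatcatcaccctacagttg

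The 3 alpha genes lie in 1 cluster on chromosome 12 (GRCh38), with TUBA1A at 49184686-49189080 on the minus strand, TUBA1B at 49127782-49131397 on the minus strand and TUBA1C at 49188736-49274600 on the plus strand, so that the annotated ends of TUBA1A and TUBA1C overlap. TUBB2A (3153497-3157544) and TUBB2B (3223324-3231730) are neighbours on chromosome 6, and TUBB is on the same chromosome at 30717435-30725538. TUBB4B is on chromosome 9 (137241287-137243707), TUBB3 on chromosome 16 (89921392-89938761), TUBB6 on chromosome 18 (12307669-12344320) and TUBG1 on chromosome 17 (42609641-42615238). The canonical transcripts of the 9 alpha and beta genes have 4 exons each and that of TUBG1 has 11.

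Close copies limit how well reads could be assigned. TUBA1A and TUBA1B are identical at 97.2% of aligned coding bases, TUBA1B and TUBA1C at 96.8%, and TUBB2A and TUBB2B at 98.1%, while TUBB and TUBB4B share 84.4%. Of the 31-base words in the TUBA1B transcript, 72.2% also occur in a transcript of another gene, against 59.3% for TUBA1A, 37.7% for TUBA1C, 69.0% for TUBB2A, 56.3% for TUBB2B, 20.7% for TUBB4B and 6.8% for TUBB6. For TUBB it was 33.5%, with TUBBP1 the closest other gene (28.8%), and for TUBG1 39.7%, with TUBG2 the closest (36.6%), so reads of these 2 members may be shared as well. The split of reads between the 3 alpha genes and between TUBB2A and TUBB2B is therefore uncertain, and whether the quantification used the strand of a read is not given in the sources used here. For TUBB3, 92.8% of these words occur in a second annotated gene (ENSG00000198211), whose entry is at 0 in every library. TUBB has 8 entries in the table with the same count in 11 of 12 libraries. In R1 −Met+Hcy replicate 3 the entry ENSG00000196230 has 1822 counts and each of the other 7 entries 1441. Levels of TUBB are therefore the sum of its 8 entries, and the fitted values are those of ENSG00000196230.

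Library totals ran from 12664158 to 18771349 estimated counts. Of the markers of the HEK293 line, VIM was at 305 to 835 CPM, the counts of a gene scaled to an equal library total, and NEFM at 7.61 to 72.5 CPM. PAX2 ran from 6.06 down to 0.206 CPM, which is under the 0.94 CPM that PTPRC, ALB and PECAM1, the markers of other cell types, reached at most. COL1A1, a collagen of connective tissue cells that was listed as a marker to be near 0, ran from 8.22 to 39.8 CPM. R1 −Met+Hcy replicate 3 stood apart from its group, with a chi-square per gene of 205 and 236 against the other 2 replicates, where the other pairs of libraries within a group gave 7.13 to 90.1. In that library the distance of a gene from the other 2 replicates fell with the GC content of its transcript (Spearman's rho −0.75 over 11088 genes). Where a member's call or direction on R1 −Met+Hcy changed without this library, that value is given as well. The replicates are separate samples in the labels, with no word on separate cultures, so p-values measure the spread between these samples. In RNA from a whole culture, fewer cells with a transcript and less of it in each cell cannot be told apart.

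Per kilobase of transcript, the order of levels in HEK293T cells in +Met was TUBA1B first at 1725 ± 57.2 CPM per kb (SD, n = 3), then TUBB at 690 ± 53.6, TUBB4B at 342 ± 32.3 and TUBA1C at 301 ± 9.65. TUBA1A (122 ± 11.9) and TUBG1 (96.7 ± 10.1) followed. TUBB6 (41.5 ± 3.59), TUBB2B (37.9 ± 5.39) and TUBB2A (27.5 ± 3.73) were lower still, and TUBB3, the isotype known from neurons, was last at 5.10 ± 0.760 CPM per kb. The ranges over the 3 libraries overlapped between TUBB4B and TUBA1C and between TUBB6 and TUBB2B, and between no other neighbours in this order. By group mean TUBB4B stood above TUBB in HEK293T cells in −Met+Hcy, at 453 ± 21.9 against 389 ± 26.3 CPM per kb, and in no other group. Together the 10 genes took 0.649 ± 0.0261% of the counts in HEK293T +Met, 0.399 ± 0.0225% in HEK293T −Met+Hcy, 0.693 ± 0.0272% in R1 +Met and 0.577 ± 0.105% in R1 −Met+Hcy, where replicates 1 and 2 had 0.643% and 0.633% and replicate 3 had 0.456%.

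**Figure D1:**
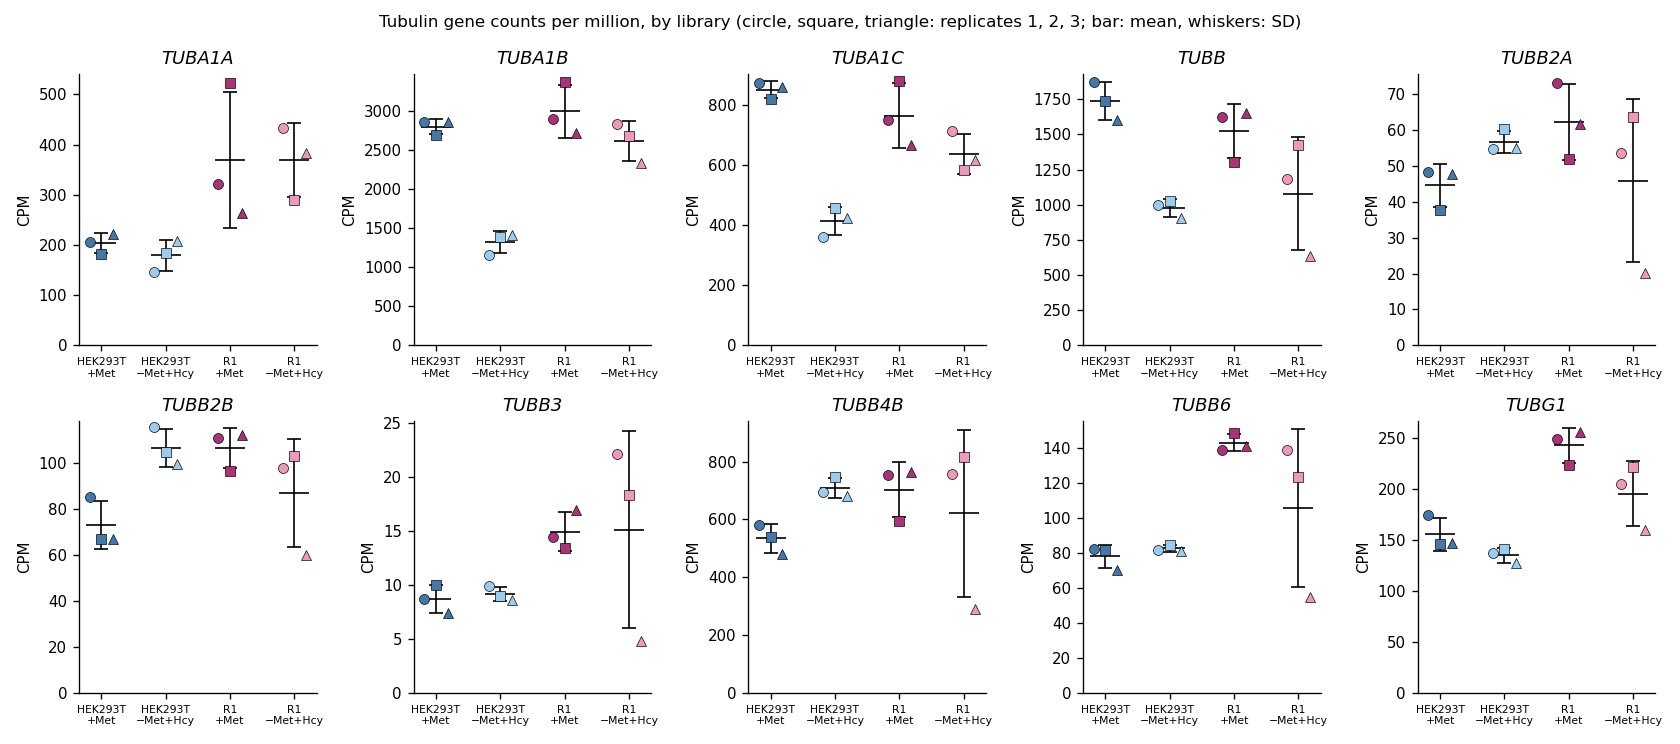
CPM of the 10 tubulin genes in each library, 1 panel a gene with its own vertical axis from 0; points are libraries, with circle, square and triangle for replicates 1, 2 and 3, and bars with whiskers are the mean and SD of a group. TUBA1B, TUBA1C and TUBB are low in the 3 HEK293T −Met+Hcy libraries, and the triangle of R1 −Met+Hcy is the lowest of its group for TUBB and the other 5 beta genes.

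The first comparison asks what 12 h without methionine does to tubulin messages in cells that depend on it. In HEK293T cells TUBA1B, TUBA1C and TUBB were lower in −Met+Hcy than in +Met, each by more than 2-fold in the fit, while TUBB2A, TUBB2B and TUBB4B were not. Over all genes, 1.59% were called lower and 3.04% higher in this comparison, where a call needs a log2 fold change beyond 1 in either direction and an adjusted p below 0.05 in edgeR's quasi-likelihood test. The 3 genes were past both thresholds, but the members were selected on this comparison, so no p is given for them in it and nothing is read from their number.

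TUBA1B, the most abundant alpha isotype of dividing cells, had 2862, 2699 and 2859 CPM in the HEK293T +Met libraries and 1158, 1396 and 1417 CPM in −Met+Hcy. TUBA1C, a second widely expressed alpha isotype, had 873, 820 and 859 CPM in +Met and 362, 456 and 422.5 CPM in −Met+Hcy. The 2 groups are far apart for both genes, with no overlap. The log2 fold change was −1.38 (SE 0.19) for TUBA1B and −1.33 (SE 0.19) for TUBA1C. TUBA1A, the third gene of the cluster, had 207, 183 and 222 CPM in +Met and 147, 184 and 207 CPM in −Met+Hcy. Its groups overlap, and its log2 fold change was −0.48 (SE 0.29).

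TUBB, the main beta isotype of these cells, had 1870, 1734 and 1600.2 CPM in +Met and 1001, 1028.5 and 903 CPM in −Met+Hcy. These groups do not overlap either, and the log2 fold change was −1.12 (SE 0.19). TUBB4B, a beta isotype that most tissues express, had 581, 541 and 481 CPM in +Met and 695, 747 and 683 CPM in −Met+Hcy. In CPM every −Met+Hcy library was above every +Met library for TUBB4B, and the same held for TUBB2A (37.5 to 48.1 against 54.6 to 60.2 CPM) and TUBB2B (66.9 to 84.9 against 99.2 to 115 CPM). On the scale of the fit these differences were small, with log2 fold changes of 0.11 (SE 0.27) for TUBB4B, 0.05 (SE 0.29) for TUBB2A and 0.25 (SE 0.18) for TUBB2B.

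CPM and the scale of the fit differed for most genes. Over the 10506 genes above 5 CPM in every group, the log2 change in CPM exceeded that of the fit, which scales by TMM, by a median of 0.29 in the medium comparison of HEK293T cells and by 0.35 in the comparison of R1 with HEK293T cells in +Met. In the other 2 comparisons the shift was −0.04 and 0.02. With library totals alone the log2 fold changes were −1.08 for TUBA1B, −1.04 for TUBA1C and −0.83 for TUBB, so that TUBB no longer passed the fold of the call, and TUBB4B and TUBB2B came to 0.41 and 0.55. TUBB3 and TUBB6 changed sign, from −0.22 (SE 0.37) and −0.21 (SE 0.24) to 0.07 and 0.08. TUBG1 had 146 to 174 CPM in +Met and 127 to 141 CPM in −Met+Hcy, with a log2 fold change of −0.50 (SE 0.16) by TMM and −0.20 by totals. Of the 10 members 7 had groups without overlap in CPM, 4 lower and 3 higher, beside 54.2% of the 11639 genes whose log2 CPM averaged above 2.

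**Figure D2:**
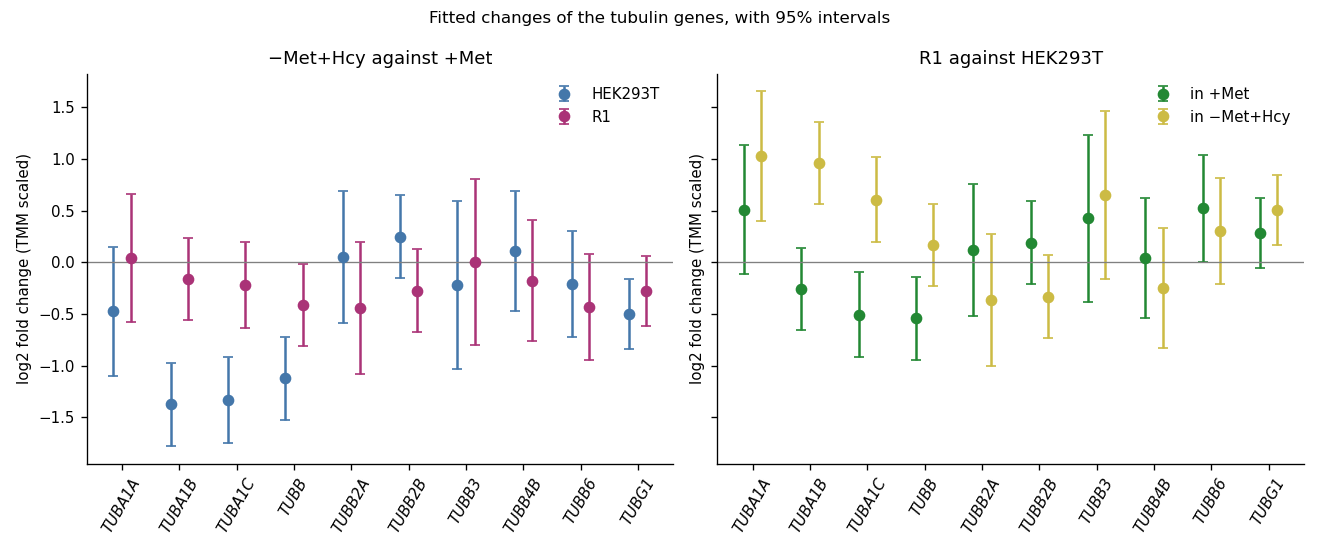
Log2 fold changes from the edgeR fit with TMM scaling for the 10 tubulin genes, with 95% intervals as whiskers; left, −Met+Hcy against +Met in HEK293T and in R1, and right, R1 against HEK293T in each medium. In HEK293T the intervals of TUBA1B, TUBA1C and TUBB lie wholly below −0.72, and in R1 the points of all 10 genes lie between −0.44 and 0.04.

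Ratios between members do not depend on the scaling of a library. They can still carry its trend with GC content, described below, since TUBB has 51.1% GC and TUBB4B 59.3%. TUBB stood at 2.02 ± 0.0412 times the level of TUBB4B per kb in HEK293T +Met (range 1.99 to 2.07) and at 0.858 ± 0.0368 times in −Met+Hcy (range 0.822 to 0.896). The share of TUBB in the beta total per kb went from 60.3 ± 0.273% to 39.6 ± 0.896%, and that of TUBB4B from 29.9 ± 0.504% to 46.2 ± 0.971%. In R1 the ratio of TUBB to TUBB4B was 1.35 ± 0.0126 in +Met (range 1.34 to 1.36) and 1.14 ± 0.204 in −Met+Hcy (range 0.970 to 1.37). The R1 +Met libraries thus lay between the 2 HEK293T groups without touching either. In R1 −Met+Hcy, replicates 1 and 2 had ratios of 0.970 and 1.08, below every R1 +Met library, and replicate 3 had 1.37, above them. The share of TUBB in the beta total per kb was 49.04 ± 0.497% in R1 +Met, and in −Met+Hcy it was 41.8% and 45.0% in replicates 1 and 2 and 49.2% in replicate 3.

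Among the alpha genes the share of TUBA1B per kb moved little, from 80.3 ± 0.254% to 76.3 ± 0.406% in HEK293T cells, and that of TUBA1C stayed at 14.03 ± 0.139% and 13.7 ± 0.619%. TUBA1A went from 5.67 ± 0.373% to 10.01 ± 0.721% of the alpha total. In R1 TUBA1A held 9.26 ± 2.07% in +Met, and 11.5%, 8.53% and 12.2% in the −Met+Hcy replicates 1, 2 and 3. Per kb the alpha total was 1.89 ± 0.176 times the beta total in HEK293T +Met, and 1.09 ± 0.145 times in −Met+Hcy. The R1 +Met libraries gave 1.71, 2.53 and 1.56, and the R1 −Met+Hcy libraries 2.00, 1.61 and 3.68. The last value, from replicate 3, is above every other library, and the mean of the other 2 is 1.81, within the range of R1 +Met. These shares and ratios rest on the canonical transcript length of each gene and on the split of reads between near-identical copies. They can carry the GC trend of a library as well.

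**Figure D3:**
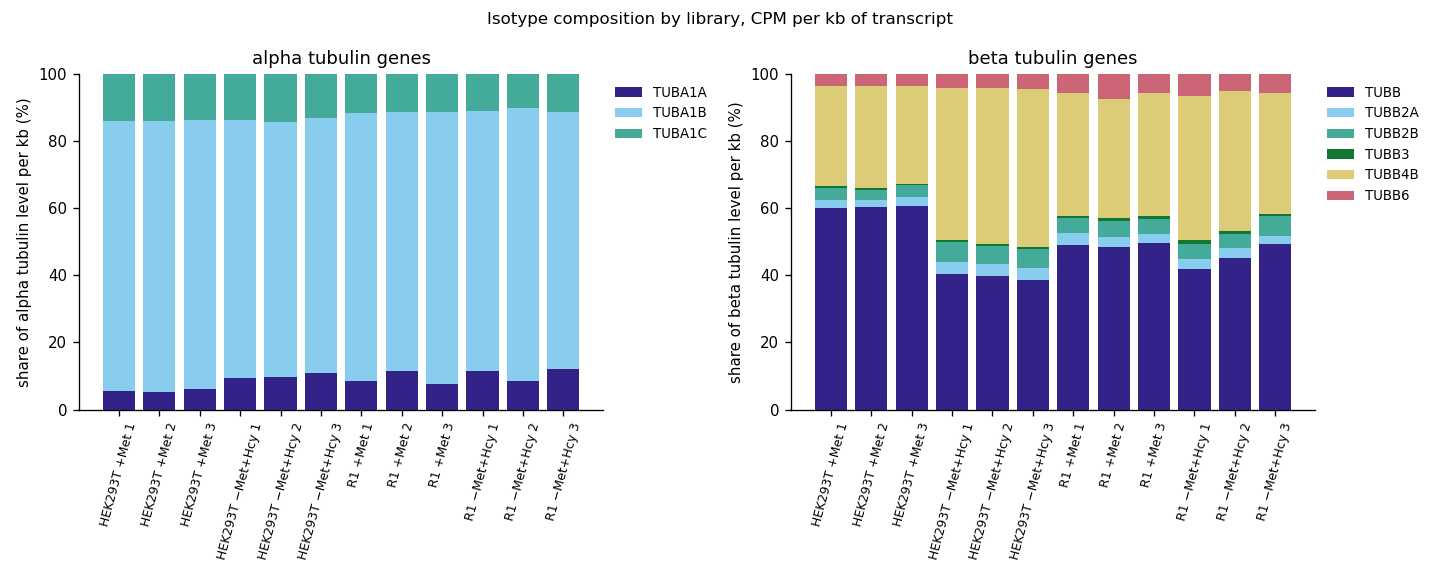
Shares of the alpha genes (left) and of the beta genes (right) in the summed CPM per kb of their class, in percent, 1 stacked bar a library. TUBA1B holds 76.0 to 81.3% of the alpha level in all 12 libraries, and the boundary between TUBB and the other beta genes falls from 60.04 to 60.59% in HEK293T +Met to 38.62 to 40.39% in HEK293T −Met+Hcy.

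The same medium change in R1 cells, which keep proliferating in it, gave no call among the tubulin genes. In these libraries, which the HEK293T medium comparison does not use, 0 of 10 members passed edgeR's test (lowest adjusted p = 0.622), beside 0.00583% of all genes. DESeq2 called 0 as well, beside 0.163%, and 1 member (TUBB) had an unadjusted p under 0.05, beside 7.78%. The log2 fold changes ran from −0.44 to 0.04, with a median of −0.25 beside −0.02 over all genes tested.

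TUBA1B had 2902, 3374.5 and 2726 CPM in the R1 +Met libraries and 2833, 2684 and 2342 CPM in −Met+Hcy. The groups overlap, and the log2 fold change was −0.16 (SE 0.18, adjusted p = 0.755 by edgeR), with a 95% interval from −0.56 to 0.24. TUBA1C had 748, 878 and 665 CPM in +Met and 712, 583 and 615 CPM in −Met+Hcy, with a log2 fold change of −0.22 and an interval from −0.63 to 0.19.

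TUBB had 1620.0, 1300.3 and 1652.5 CPM in R1 +Met and 1181.5, 1423 and 634 CPM in −Met+Hcy, the last from replicate 3. Its log2 fold change was −0.41 (SE 0.18, adjusted p = 0.622) and −0.27 (SE 0.15, adjusted p = 0.795) without that library. TUBB4B had 753, 593 and 764.5 CPM in +Met and 757, 816 and 289 CPM in −Met+Hcy, so replicate 3 is far below the other 2. TUBB4B changed direction when replicate 3 was left out, from −0.18 to 0.12, and so did TUBA1A, from 0.04 to −0.08. TUBB6, an isotype that many tissues express at low level, had 139 to 149 CPM in +Met and 54.6 to 139 CPM in −Met+Hcy, and TUBG1 had 223 to 256 CPM and 160 to 222 CPM. The groups of TUBB6 and TUBG1 do not overlap, beside 9.93% of genes, but neither passed the test (adjusted p = 0.636 for each).

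The distance of R1 −Met+Hcy replicate 3 from its group was ordered among the tubulins as it was among all genes. The difference in log2 CPM from the mean of the other 2 replicates was 0.12 for TUBA1A, whose transcript has 51.3% GC, and −2.05 for TUBB3, whose transcript has 62.2% GC. TUBB4B and TUBB2A, both at 59.3% GC, were at −1.44 and −1.53. Across the 10 genes Spearman's rho with GC content was −0.80, a description over genes of 1 library. TUBB (51.1% GC) was at −1.03, lower than the alpha genes of like GC content, and it is the gene whose 8 entries disagreed in this library. Other libraries had a trend with GC content as well. Over all genes Spearman's rho was 0.54 in HEK293T +Met replicate 1, and 0.45, −0.34 and 0.18 in R1 +Met replicates 1, 2 and 3. Across the 10 genes it was 0.27, −0.62 and 0.64 in these 3 R1 +Met libraries. With the GC trend of each library removed, the log2 fold change in R1 was 0.09 for TUBB4B and 0.03 for TUBG1.

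**Figure D4:**
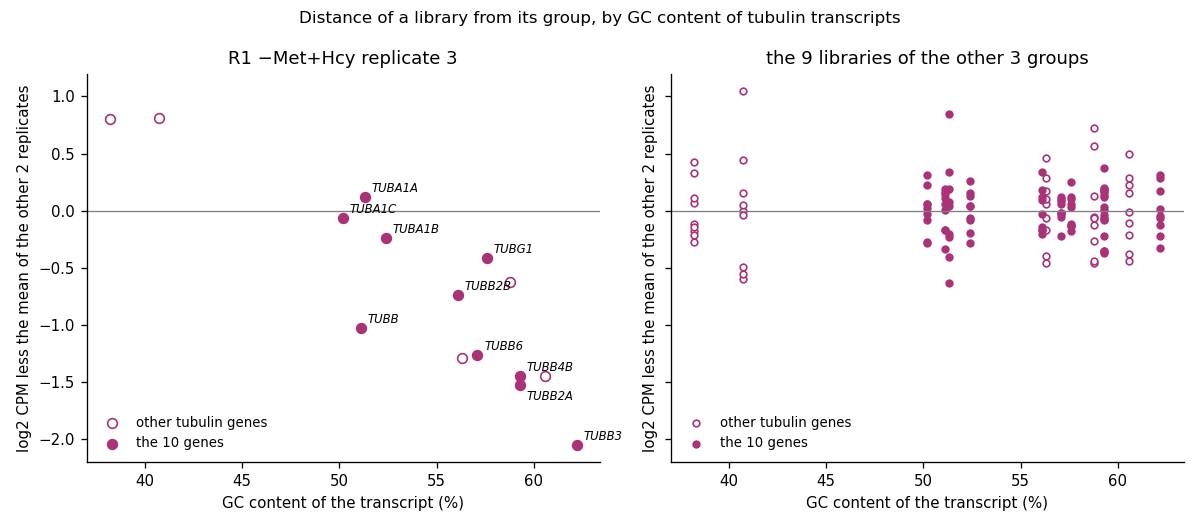
Difference in log2 CPM between a library and the mean of the other 2 replicates of its group, against the GC content of the canonical transcript in percent; left, R1 −Met+Hcy replicate 3, and right, the 9 libraries of the other 3 groups; filled points are the 10 tubulin genes and open points other tubulin genes whose log2 CPM averaged above 2. On the left the points run from 0.12 for TUBA1A down to −2.05 for TUBB3, and on the right the 10 genes lie between −0.64 and 0.85.

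Whether the response of the lines differs was tested as an interaction in the same fit. The interaction holds the HEK293T comparison that the members were selected on, so its p-values and calls are a description. The difference of the log2 fold changes, R1 less HEK293T, was 1.22 for TUBA1B (SE 0.26, adjusted p = 0.160 by edgeR), 1.11 for TUBA1C (SE 0.27, adjusted p = 0.233) and 0.71 for TUBB (SE 0.26, adjusted p = 0.416). None of the 10 genes was called, beside 0.0583% of all genes, and 3 had an unadjusted p under 0.05, beside 9.67%. DESeq2 called TUBA1B (adjusted p = 0.00014) and TUBA1C (adjusted p = 0.00593), beside 1.11% of all genes. Without R1 −Met+Hcy replicate 3, edgeR called TUBA1B (1.21, adjusted p = 0.0270), while TUBA1C (1.05, adjusted p = 0.0545) and TUBB (0.86, adjusted p = 0.0532) stayed above the threshold, beside 1.38% of all genes called. The remaining differences ran from −0.52 for TUBB2B to 0.52 for TUBA1A with all libraries. Without R1 −Met+Hcy replicate 3, TUBB4B changed direction from −0.29 to 0.01 and TUBB6 from −0.22 to 0.04.

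R1 and HEK293T cells were compared in each medium. These comparisons share the HEK293T libraries with the first one, on which the members were selected. Their p-values and counts are therefore a description. In +Met edgeR called 0 of 10 members, beside 7.66% of genes, DESeq2 also 0, beside 10.6%, and 3 had an unadjusted p under 0.05, beside 26.1%. TUBB was at −0.54 (SE 0.18, adjusted p = 0.0819) and TUBA1C at −0.51 (SE 0.19, adjusted p = 0.114) in R1 relative to HEK293T, and TUBB6 at 0.52 (SE 0.24, adjusted p = 0.186). TUBA1B was at −0.26 by TMM and at 0.10 by library totals. In CPM 7 members had every R1 library above every HEK293T library and no member had the reverse. Over all genes 52.0% had groups that do not overlap, counted in either direction. The shift of 0.35 between the scales applies to these 7 members. Without R1 −Met+Hcy replicate 3, which is in neither group but enters the estimate of the spread, 4 members passed an adjusted p of 0.05. TUBB6 (adjusted p = 0.00625) and TUBB3 (adjusted p = 0.0465) were higher, beside 17.0% of genes, and TUBB (adjusted p = 0.00864) and TUBA1C (adjusted p = 0.0336) lower, beside 15.7%.

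In −Met+Hcy every R1 library was above every HEK293T library in CPM for the 3 alpha genes and TUBG1. TUBA1A had 434, 289 and 384 CPM in R1 against 147, 184 and 207 CPM in HEK293T, a log2 fold change of 1.03 (SE 0.29, adjusted p = 0.0333). It was the 1 member called, beside 5.29% of genes called higher, and TUBA1B (0.96, SE 0.18, adjusted p = 0.00506) passed by adjusted p alone, beside 7.20%. The HEK293T libraries here are among those the members were selected on, so these p-values are a description. TUBG1 (0.51, SE 0.16, adjusted p = 0.0502) and TUBA1C (0.61, SE 0.19, adjusted p = 0.0534) did not pass. For these 4 genes the groups do not overlap, beside 34.6% of genes counted in either direction, and the 6 beta genes overlap in this medium.

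The call of TUBA1A was lost when any 1 of 7 libraries was left out, namely HEK293T +Met replicates 1 and 3, each of the 3 HEK293T −Met+Hcy replicates and R1 −Met+Hcy replicates 1 and 3, with log2 fold changes from 0.88 to 1.17 and adjusted p up to 0.118. The R1 replicates of TUBA1A also spread widely in +Met, from 264 to 523 CPM. Without R1 −Met+Hcy replicate 3, 6 members were higher in R1 at an adjusted p under 0.05, beside 15.7% of genes. They were the 3 alpha genes (TUBA1A 0.90, TUBA1B 0.95 and TUBA1C 0.54), TUBG1 (0.56), TUBB6 (0.57) and TUBB3, which had 22.2 and 18.3 CPM in the 2 libraries left and 8.62 to 9.89 CPM in HEK293T (log2 fold change 1.05, SE 0.16, adjusted p = 0.000538). Of these 6, TUBB3 was the 1 past the fold of the call as well. TUBB4B changed direction between the lines without that library, from −0.25 to 0.05.

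The promoters of 4 members are shown, namely the 3 genes that were lower in HEK293T −Met+Hcy and TUBB4B, which was not. The lines give the 250 bases before the RefSeq start that coincides with the first base of the canonical transcript, with the motif CCAAT, bound by the factor NF-Y, in capitals on either strand (as CCAAT or ATTGG). The motif was in 8 of 10 member promoters, all but those of TUBA1B and TUBB2A, and 2 (TUBA1A and TUBB4B) held several copies, while 32.0% of the 35116 promoters in RefSeq (GRCh38.p14) hold it. The 8 of 10 counts genes and the 32.0% counts promoters, of which the members have 15, so the 2 are not like for like. The further starts of TUBB, TUBB3 and TUBB6 have no motif, and those of TUBA1C have it. A match is a description of the letters, and TUBA1B, which has none in this window, and TUBB, which has 1, were both lower.
TUBA1B, chr12:49131396-49131645, minus strand: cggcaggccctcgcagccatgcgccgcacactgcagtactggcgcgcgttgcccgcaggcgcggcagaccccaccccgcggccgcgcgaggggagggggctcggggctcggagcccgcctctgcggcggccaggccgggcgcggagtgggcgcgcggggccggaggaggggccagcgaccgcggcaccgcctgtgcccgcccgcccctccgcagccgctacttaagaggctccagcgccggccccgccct
TUBA1C, chr12:49264832-49265081, plus strand: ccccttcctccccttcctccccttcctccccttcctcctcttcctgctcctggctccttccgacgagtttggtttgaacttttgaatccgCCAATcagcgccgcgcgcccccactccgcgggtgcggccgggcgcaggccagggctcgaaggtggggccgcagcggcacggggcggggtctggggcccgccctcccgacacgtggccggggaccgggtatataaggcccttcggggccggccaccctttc
TUBB, chr6:30720102-30720351, plus strand: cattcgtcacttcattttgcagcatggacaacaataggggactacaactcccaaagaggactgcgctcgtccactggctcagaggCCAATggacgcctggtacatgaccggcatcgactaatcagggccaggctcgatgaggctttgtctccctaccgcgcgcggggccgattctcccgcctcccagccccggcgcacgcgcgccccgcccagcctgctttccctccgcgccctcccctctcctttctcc
TUBB4B, chr9:137241037-137241286, plus strand: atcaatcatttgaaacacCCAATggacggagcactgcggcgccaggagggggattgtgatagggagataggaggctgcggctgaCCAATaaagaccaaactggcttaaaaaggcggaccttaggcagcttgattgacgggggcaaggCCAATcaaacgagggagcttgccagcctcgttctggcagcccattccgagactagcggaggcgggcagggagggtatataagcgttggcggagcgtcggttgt

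The genes around tubulin were followed in 7 lists with 95 tested genes. In HEK293T cells 1 of them was called higher in −Met+Hcy, beside 3.04% of all genes, and 3 lower, beside 1.59%. In R1 cells edgeR called 0, beside 0.00583%, with 6 at an unadjusted p under 0.05, beside 7.78%. DESeq2 also called 0 there, beside 0.163%. For the difference of responses edgeR called 0, beside 0.0583%, with 10 at an unadjusted p under 0.05, beside 9.67%. DESeq2 called 1 for this difference, beside 1.11%. R1 differed from HEK293T cells in 9 of the 95 in +Met, beside 7.66% of all genes. In −Met+Hcy 5 were higher, beside 5.29%, and 3 lower, beside 4.66%. The lists were chosen with earlier results of these data known, so these counts and the p-values of their genes are a description. Calls in the lists are on the TMM scale, so the shifts of 0.29 and 0.35 from CPM apply to them as well.

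Subunits of the CCT chaperonin, which folds tubulin and actin, were lower in HEK293T −Met+Hcy. All 8 had a log2 fold change below 0, with a median of −0.83 beside 0.03 over all genes, and 5 of 8 were lower at an adjusted p under 0.05, beside 2.78% of genes. The list was chosen with earlier results of these data known, so nothing is read from this count. The 2 subunits that were called were TCP1 (1207 ± 48.3 to 672 ± 42.1 CPM, log2 fold change −1.14, SE 0.25, adjusted p = 0.0192) and CCT2 (500 ± 53.9 to 296 ± 20.4 CPM, −1.05, SE 0.16, adjusted p = 0.00346). In CPM the mean of neither fell by as much as 2-fold, so both calls rest on the TMM scale. In R1 the median was −0.31 with none called, and the difference of responses had a median of 0.58, with all 8 above 0 and none called. In +Met all 8 were already below 0 in R1 relative to HEK293T, with a median of −0.525. TCP1 was called there (740 ± 108 CPM in R1, log2 fold change −1.05, SE 0.25, adjusted p = 0.0199 by edgeR), again with less than 2-fold between the means in CPM. In −Met+Hcy the median between the lines was 0.075, with none called.

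Of the 12 genes for folding cofactors and prefoldin, 11 had a log2 fold change below 0 in HEK293T −Met+Hcy (median −0.46, beside 0.03 over all genes). The exception was TBCC, the cofactor at the last step of dimer assembly, which rose from 27.9 ± 1.67 to 88.6 ± 3.90 CPM (log2 fold change 1.37, SE 0.22, adjusted p = 0.00407). TBCC had 26.3 ± 2.80 and 23.2 ± 7.92 CPM in R1, and was lower in R1 than in HEK293T in −Met+Hcy by −1.98 (SE 0.22, adjusted p = 0.000251). Its difference of responses was −1.54 (adjusted p = 0.127, and 0.00968 without R1 −Met+Hcy replicate 3). PFDN4 had the largest change below 0 in HEK293T cells (−1.28, SE 0.53) and did not pass (adjusted p = 0.174), nor did any other gene below 0. In +Met 11 of the 12 genes were already below 0 in R1 relative to HEK293T, with a median of −0.475. The list was chosen with earlier results of these data known, so nothing is read from these counts. PFDN6 was lower in R1 than in HEK293T in +Met (7.24 ± 0.704 against 11.4 ± 0.739 CPM, −1.002, SE 0.26, adjusted p = 0.0317). In CPM this difference was less than 2-fold. The PFDN6 levels are those of 1 entry, and the list left out 7 further entries of its genes.

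The 12 genes of tubulin mRNA autoregulation were balanced in HEK293T cells, with 6 above and 6 below 0, a median of 0.01 and none called. The largest changes were those of the deadenylase subunits CNOT3 (−0.67, SE 0.21, adjusted p = 0.0736) and CNOT6L (0.64, SE 0.21, adjusted p = 0.0892). SCAPER was higher in R1 than in HEK293T in −Met+Hcy (36.2 ± 11.6 against 18.3 ± 2.12 CPM, log2 fold change 1.00, SE 0.30, adjusted p = 0.0431, and 0.0557 without R1 −Met+Hcy replicate 3). Of the 20 genes of the gamma tubulin ring complex and its anchors, none was called in any comparison, with medians between −0.13 and 0.10, and HAUS1, an augmin subunit, had the largest change in HEK293T cells (−1.02, SE 0.29, adjusted p = 0.0561).

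Among the other tubulin genes none was called for the medium in either line. TUBA4A, a minor alpha isotype, was at 1.20 ± 0.306 CPM in HEK293T +Met and 6.80 ± 1.72 CPM in R1 +Met (log2 fold change 2.15, SE 0.36, adjusted p = 0.00343), and it was also called in −Met+Hcy (1.43, SE 0.34, adjusted p = 0.0163). TUBB4A, a beta isotype known from brain, was higher in R1 in +Met (38.9 ± 6.68 against 10.99 ± 2.38 CPM, 1.46, SE 0.31, adjusted p = 0.0124). In −Met+Hcy TUBB4A was at 0.78 (adjusted p = 0.112), and at 1.08 (adjusted p = 0.00153) without R1 −Met+Hcy replicate 3. TUBE1, the epsilon tubulin of centrioles, was lower in R1 in +Met (−1.19, SE 0.30, adjusted p = 0.0256) and in −Met+Hcy (−1.05, SE 0.29, adjusted p = 0.0329). In +Met its means were 25.6 ± 4.59 CPM in R1 and 45.8 ± 3.28 CPM in HEK293T, less than 2-fold apart.

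Enzymes that modify tubulin included 1 call for the medium, TTLL12, which was lower in HEK293T −Met+Hcy (174 ± 8.74 to 88.6 ± 9.35 CPM, −1.27, SE 0.29, adjusted p = 0.0235). In CPM its mean fell by slightly less than 2-fold. TTLL1, a subunit of a polyglutamylase, was higher in R1 in both media (1.29 and 1.78, adjusted p = 0.0118 and 0.00159). VASH1, which removes the last tyrosine of alpha tubulin, was higher in R1 in +Met (1.42, SE 0.35, adjusted p = 0.0236). ATAT1, the alpha tubulin acetylase, was lower in R1 in −Met+Hcy (−1.81, SE 0.53, adjusted p = 0.0402). In +Met ATAT1 was at −1.69 (adjusted p = 0.0584 by edgeR, and 0.000807 without R1 −Met+Hcy replicate 3). Its levels, under 3 CPM, are those of 1 entry, and the list left out 7 further entries of its genes. Of the 17 genes of microtubule dynamics none was called for the medium. STMN3, of the stathmin family that sequesters dimers, was higher in R1 in both media (1.46 and 1.20, adjusted p = 0.0268 and 0.0478), MAP1B in +Met (1.70, SE 0.44, adjusted p = 0.0306) and MAPRE3, which binds growing plus ends, in −Met+Hcy (1.89, SE 0.29, adjusted p = 0.00152).

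**Figure D5:**
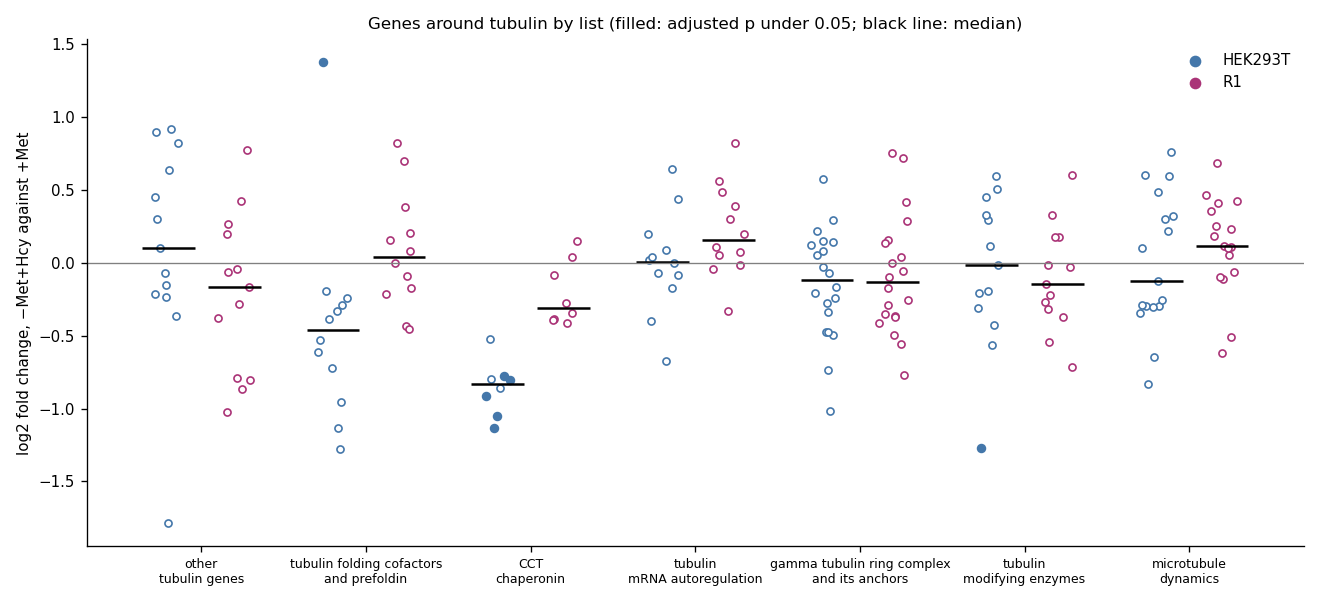
Log2 fold changes of −Met+Hcy against +Met for the tested genes of 7 lists around tubulin, in HEK293T and in R1; each point is a gene, filled where the adjusted p was under 0.05, and black lines are list medians. The 8 CCT subunits all lie below 0 in HEK293T, 5 of them filled, and no point is filled in R1.

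Across the 12 libraries the genes outside the family with a pattern most like TUBA1B were HNRNPLL (Pearson's r 0.98 of log2 CPM), IFNAR2 (0.97), NR1H3 (0.96), HSPA8 (0.95) and FH (0.95), where HSPA8 encodes the constitutive Hsc70 chaperone and FH fumarase. Without R1 −Met+Hcy replicate 3 HSPA8 came first at 0.99. Within the family TUBA1C followed TUBA1B (0.94), TUBG1 (0.69) and TUBA1A (0.65) less so, and TUBB stood at 0.57. Without that library these values were 0.94 for TUBA1C, 0.69 for TUBG1, 0.68 for TUBA1A and 0.79 for TUBB. For TUBB, the beta gene with the highest mean level, the nearest patterns were FKBP4 (0.99), NKD2 (0.98), STXBP2 (0.98), HSPA1B (0.97) and TKT (0.96), at 0.94 to 0.99 without that library, with the co-chaperone FKBP52 encoded by FKBP4 and an inducible Hsp70 by HSPA1B. These correlations share the libraries, their totals and the 4 groups, and they are a description over 12 libraries.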

How the data were processed

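RNA of HEK293T and R1 cells, each kept for 12 h in either medium, was sequenced in 3 libraries a group. Per the labels and the study's methods, the authors quantified reads with kallisto 0.48.0 on GRCh38. The deposited values are estimated counts, summed per Ensembl gene and converted to whole numbers by the authors, with no scaling for depth. Such estimates divide reads between similar transcripts by a model. CPM was computed from column sums. Entries with a summed count under 10 were left out, and the rest were scaled by TMM and fitted in R 4.3.3 with edgeR 4.0.16 (quasi-likelihood, 1 mean a group, 8 residual degrees of freedom, Benjamini-Hochberg over 17162 entries). Calls needed an adjusted p below 0.05 together with a log2 fold change beyond 1 in either direction. DESeq2 1.42.0, other scalings and filters, a GC correction, a replicate block and leaving out each library were run as alternatives. Log2 CPM used a prior count of 2. The members and the lists of genes were chosen with earlier results of these data known. The genes named are all members, the called genes of each list, otherwise at most the 2 with the largest change in HEK293T cells, and the 5 nearest patterns of TUBA1B and of TUBB. For a symbol with several entries, the lists use the entry with the highest mean CPM. Libraries of other cell lines and the metabolite data of the study were not used here.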

Additional observations from a re-analysis of the deposited data

How the results depend on the processing

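In R1 cells and between the lines in +Met 0 members were called under every alternative. Between the lines in −Met+Hcy the 1 call became 0 with the comparison's libraries alone, with the replicate block and with the GC trend removed and R1 −Met+Hcy replicate 3 left out, 2 by adjusted p alone, and 0 to 1 when a library was left out. The call lost with the replicate block is that of TUBA1A (1.04, adjusted p = 0.0647). Without R1 −Met+Hcy replicate 3 the 1 call is TUBB3, with entries summed by symbol too, and not TUBA1A. For the difference of responses the 0 calls became 2 with DESeq2, 2 with the GC trend removed and R1 −Met+Hcy replicate 3 left out, 1 with entries summed by symbol and that library left out, and 0 to 1 when a library was left out; the cause was not tested. The replicate block changed no other call. Replicate numbers did not pair the libraries: deviations of same-numbered libraries correlated between −0.505 and 0.499 over 11154 genes.

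Sign changes touched only members that were not called. With library totals alone they were TUBB3 (0.072) and TUBB6 (0.081) for the medium in HEK293T, TUBA1A (−0.001) for the medium in R1, TUBA1B (0.096) between the lines in +Met, and TUBB3 (−0.058) and TUBG1 (−0.110) for the difference of responses. With the GC trend removed they were TUBB4B (0.088) and TUBG1 (0.031) in R1 and TUBB4B (−0.075) in +Met. With R1 −Met+Hcy replicate 3 left out as well they were TUBA1A (−0.111) and TUBB4B (0.141) in R1, TUBB4B (−0.076) in +Met and TUBB6 (0.002) for the difference. With entries summed by symbol and that library left out they were TUBA1A (−0.086) and TUBB4B (0.117) in R1, TUBB4B (0.045) in −Met+Hcy, and TUBB4B (0.012) and TUBB6 (0.048) for the difference. The replicate block turned TUBB3 in R1 (−0.096). Leaving out 1 library gave, in HEK293T, TUBB2A −0.085 to 0.124. In R1 it gave TUBA1A −0.16 to 0.41, TUBB3 −0.35 to 0.40 and TUBB4B −0.39 to 0.12. Between the lines it gave TUBB2A −0.012 to 0.216 and TUBB4B −0.020 to 0.130 in +Met, and TUBB4B −0.461 to 0.048 in −Met+Hcy. For the difference it gave TUBB3 −0.133 to 0.621, TUBB4B −0.501 to 0.009 and TUBB6 −0.431 to 0.044.

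With 3 libraries a group, small differences could not be told from none: at TUBB3 a library holds only 90 to 304 counts.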
